A study of Mus musculus with 6 samples.

Results

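Serpins are protease inhibitors that share one fold, and the genes described here are the 63 whose symbols start with Serpin in a deposited table of 55573 mouse genes. Names with a hyphen, which mark pseudogenes, were left out (5 rows), and no symbol occurred in more than 1 row. The genes were grouped by the clade letter in the symbol: 25 in clade A, 27 in clade B, 3 in clade E, 2 each in clades F and I, and 1 each in clades C, D, G and H. The tissue was liver of third-generation mice on normal feed, profiled by polyA RNA sequencing in 2 groups of 3 libraries. The p21TKO group carried the genotype p21-/-mTR-/-Wrn-/-, and the DKO group, its control, carried mTR-/-Wrn-/-, so loss of the telomerase RNA gene (mTR) and of the Werner helicase gene (Wrn) was common to all 6 libraries. The study asked which pathways change when p21 (Cdkn1a), an inhibitor of cyclin-dependent kinases, is lost as well, and described the p21TKO mice as already progeroid. Strain, sex and the cells in which the genes were deleted are not given in the labels. The sample titles carry the tag 2M, which the labels do not spell out. Whether replicates are separate animals is not stated, and p-values here cover the spread among the 6 libraries.

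A serpin presents an exposed stretch, the reactive centre loop, as bait. When the target protease cuts the loop, the serpin snaps into a new shape and locks the protease in an inactive complex. The liver is the main source of the serpins in blood plasma, among them alpha-1-antitrypsin, antithrombin, alpha-2-antiplasmin and C1 inhibitor, which restrain neutrophil elastase, clotting, clot breakdown and complement. Some members no longer inhibit proteases and instead carry hormones, and clade B members mostly act inside cells. In mice the alpha-1-antitrypsin and antichymotrypsin genes have multiplied into the Serpina1 and Serpina3 families, whose copies differ most in the loop.

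Values are FPKM, reads scaled to exon length and library depth, with denominators of 19363284 to 27061293 reads per library. Cdkn1a transcripts stood at 1.41, 11.05 and 6.5 FPKM in the libraries labelled p21TKO, against 0.76, 1.79 and 0.41 FPKM in DKO. These values cover all exons, and no source used here says which part was deleted, so they do not check the deletion and every direction below rests on the labels. At least 100 reads for each of 4 Y-linked genes (Ddx3y, Eif2s3y, Kdm5d and Uty) were found in p21TKO replicate 1 and DKO replicates 2 and 3, against 0 reads in the other 3 libraries, so the libraries of a group were not all repeats of 1 animal. Reads of Xist, an RNA from the X chromosome, went the other way. They stood at 2, 3029 and 871 in p21TKO replicates 1 to 3, against 8991, 0 and 2 in DKO. The groups were thus not balanced in sex-linked transcripts. The first principal component (57.2% of the variance) stood at 44.4 and 56.6 in p21TKO replicates 2 and 3, at -34.6 in p21TKO replicate 1 and at -33.6 to -7.7 in DKO, so p21TKO replicate 1 lay with the DKO libraries. The hepatocyte markers, 11 of 12 of them found in the table, summed to 49672 to 57586 FPKM in p21TKO and 42823 to 52509 FPKM in DKO, while 4 of the 11 had higher and 7 lower values (median log2 difference -0.10).

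Serpins were among the most abundant transcripts of these livers, and their summed level was higher in every p21TKO library than in any DKO library. All 63 genes together took 3.81, 4.4 and 4.29% of the summed FPKM of all genes in p21TKO replicates 1 to 3, against 3.11, 2.88 and 3.36% in DKO replicates 1 to 3. Without the transcripts encoded in mitochondria, the shares were 4.51, 4.75 and 4.77% in p21TKO, against 3.64, 3.73 and 3.91% in DKO. The groups did not overlap on either base. No test was run on this sum, and no sum of another gene family was set beside it. The family did not rise as a whole. As deposited, the ratio of means (p21TKO over DKO) was 1.71 for the Serpina3 copies and 1.25 for the Serpina1 copies. It was 0.57 for the other clade A genes and 0.883 for clades B to I. Clade A held 91.5% of the family's mean level, with 35.4% in Serpina3k alone and 46.3% in Serpina1a to Serpina1e. In a bulk sample, a change in the number of cells of a type and a change in RNA per cell cannot be told apart.

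Of the 63 genes, 24 had a mean of at least 1 FPKM and entered the test, and these held 99.972% of the family's mean level. None of the 24 passed (limma on log2(FPKM + 1), adjusted p under 0.05 over all genes), where 7 of 9538 genes did (0.0734%). At an unadjusted p under 0.05 there were 2 of 24, Serpina6 and Serpinb9, where 9.38% of all tested genes had one, and limma voom on recovered reads also called 0 (0.0210% of all genes). The groups did not overlap for 3 genes (Serpina1a above, Serpina6 and Serpind1 below), against 15.4% of all tested genes (6.93% above and 8.49% below). Values were higher in p21TKO for 14 genes and lower for 10. The median log2 difference was 0.21, beside 50.2% higher and a median of 0.002 over all tested genes. These shares were near those of all genes, so what follows gives the levels library by library, with a fold or difference as a description.

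**Figure D1:**
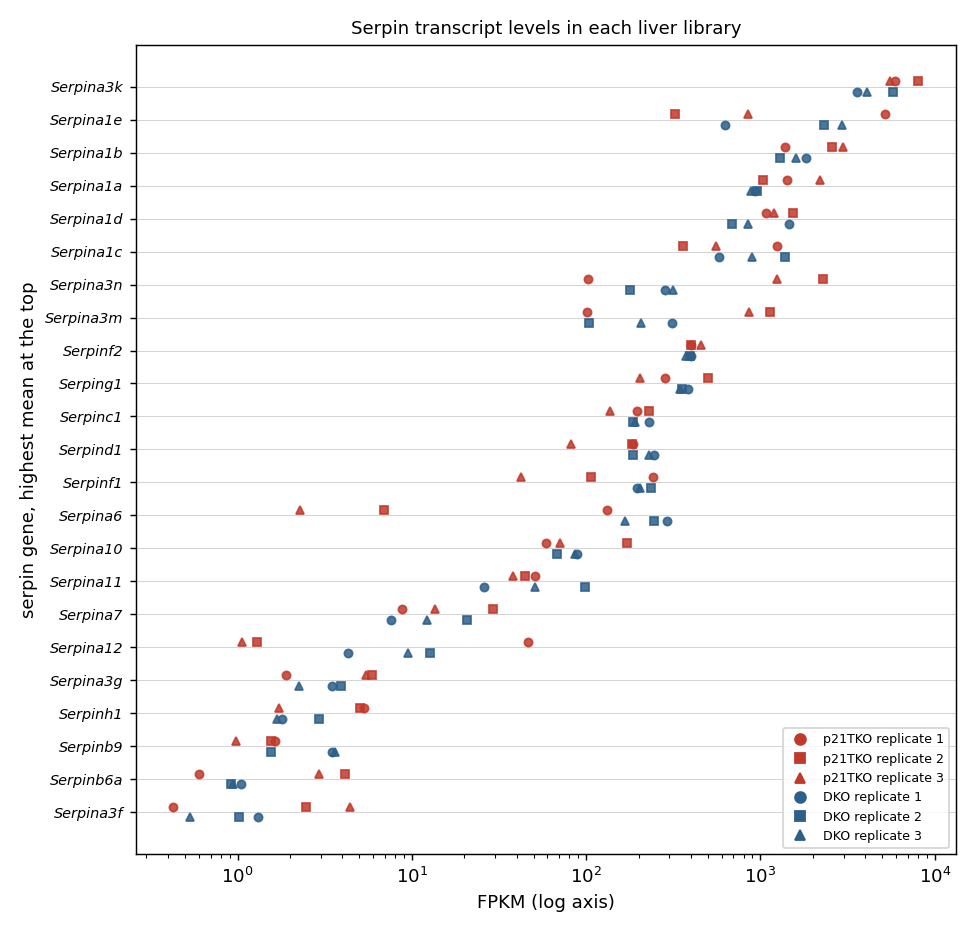
FPKM (log axis) of 23 of the 24 tested serpin genes in each library, with p21TKO libraries in red above DKO libraries in blue and a symbol per replicate. Serpina6 spans from 2.29 FPKM in p21TKO replicate 3 to 291 FPKM in DKO replicate 1, while Serpinf2 lies between 375 and 454 FPKM throughout.

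The 5 expressed Serpina1 copies encode forms of mouse alpha-1-antitrypsin and lie close together on chromosome 12. Which protease each copy inhibits was not measured here. Their coding sequences were 96.3 to 98.5% identical over 1242 bases (GENCODE M21, GRCm38), but only 86.0 to 93.0% identical over the 57 bases that encode the reactive centre loop. The loop stretches, found by a script from the conserved Gly-Thr-Glu-Ala hinge, are shown because they are where the copies part. Capitals mark the 13 positions at which the 5 copies do not all have the same base. All lie on the minus strand in the last exon, at chr12:103853774-103853830 for Serpina1a, chr12:103728341-103728397 for Serpina1b, chr12:103895111-103895167 for Serpina1c, chr12:103763779-103763835 for Serpina1d and chr12:103947117-103947173 for Serpina1e.
Serpina1a: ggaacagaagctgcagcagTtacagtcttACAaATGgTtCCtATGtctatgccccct
Serpina1b: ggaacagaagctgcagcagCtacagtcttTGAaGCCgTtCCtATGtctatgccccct
Serpina1c: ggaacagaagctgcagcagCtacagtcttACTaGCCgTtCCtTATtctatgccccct
Serpina1d: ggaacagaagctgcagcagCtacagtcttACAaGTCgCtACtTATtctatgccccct
Serpina1e: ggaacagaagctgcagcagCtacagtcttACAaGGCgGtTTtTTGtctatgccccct

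Serpina1e had the widest range of the 5 copies. It stood at 5184, 323 and 848 FPKM in p21TKO replicates 1 to 3, against 629.5, 2302 and 2939 FPKM in DKO replicates 1 to 3. The 3 libraries with Y-linked transcripts held the 3 highest values and the 3 without held the lowest, in both groups. Serpina1c stood at 1241, 358 and 554 FPKM in p21TKO, against 578, 1374 and 900.0 FPKM in DKO, with the same order by Y-linked transcripts. Neither differed between the genotypes beyond the spread (log2 differences of -0.53, SE 1.09, and -0.51, SE 0.56, limma adjusted p = 0.8773 and 0.7531). With a term for Y-linked transcripts the Serpina1e difference turned to 0.36.

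Serpina1a, Serpina1b and Serpina1d had higher means in p21TKO. Serpina1a stood at 1427, 1038 and 2200.4 FPKM in p21TKO, against 928, 962 and 879 FPKM in DKO, and the groups did not overlap. Its log2 difference of 0.68 (SE 0.37) did not pass (limma adjusted p = 0.568). Serpina1b stood at 1391, 2569.8 and 2981 FPKM in p21TKO, against 1822, 1287 and 1594 FPKM in DKO, so p21TKO replicate 1 lay among the DKO libraries (0.50, SE 0.40, limma adjusted p = 0.6649). Serpina1d stood at 1081, 1531 and 1188 FPKM in p21TKO, against 1453, 690.0 and 847 FPKM in DKO, and the groups overlapped (0.40, SE 0.38, limma adjusted p = 0.7166). Both Serpina1b and Serpina1d were lower in each library with Y-linked transcripts than in any without.

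The make-up of the alpha-1-antitrypsin transcripts therefore differed between libraries more than their sum did. The copies summed to 10324, 5819 and 7772 FPKM in p21TKO replicates 1 to 3, against 5409.7, 6614 and 7159.5 FPKM in DKO, a ratio of means of 1.25. Serpina1e made up 50.2, 5.55 and 10.9% of that sum in p21TKO replicates 1 to 3, against 11.6, 34.8 and 41.0% in DKO. Serpina1b made up 13.5, 44.2 and 38.4% in p21TKO, against 33.7, 19.5 and 22.3% in DKO. The sixth copy, Serpina1f, was at 0 in every library. Because the copies are alike, reads could be divided between them: between 14.8% (Serpina1e) and 58.5% (Serpina1c) of the 100-base windows of each copy's transcript also occur in another gene's transcripts, so single-copy levels are uncertain. For Serpina1c, 31.5% of exon bases are also covered by B430119L08Rik on the other strand.

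**Figure D2:**
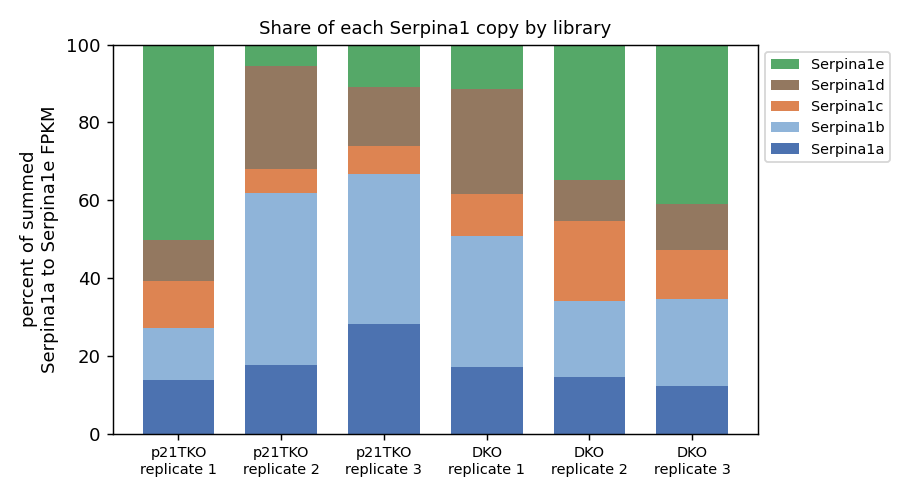
Share of each Serpina1 copy in the summed FPKM of Serpina1a to Serpina1e, 1 stacked bar per library, p21TKO at the left and DKO at the right. Serpina1e takes 50.2, 34.8 and 41.0% in the 3 libraries with Y-linked transcripts (p21TKO replicate 1, DKO replicates 2 and 3) and 5.55 to 11.6% in the others.

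The Serpina3 genes, relatives of human antichymotrypsin, split into a high, steadier copy and a set that varied together. Their loops differ in length as well as in letters, which is why the coding stretch of the loop is shown for the 3 most abundant. Capitals mark the bases between the shared start and the shared end, and all lie on the plus strand in the last exon, at chr12:104345269-104345352 for Serpina3k, chr12:104393769-104393858 for Serpina3m and chr12:104413448-104413537 for Serpina3n (GENCODE M21, GRCm38).
Serpina3k: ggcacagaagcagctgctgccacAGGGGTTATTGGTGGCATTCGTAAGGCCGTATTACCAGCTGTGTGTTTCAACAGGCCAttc
Serpina3m: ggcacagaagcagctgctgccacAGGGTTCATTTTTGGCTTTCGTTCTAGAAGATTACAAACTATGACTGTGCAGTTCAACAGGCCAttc
Serpina3n: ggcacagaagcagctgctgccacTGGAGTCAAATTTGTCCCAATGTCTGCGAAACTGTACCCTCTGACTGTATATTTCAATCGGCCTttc

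Serpina3k, known as contrapsin, a trypsin inhibitor of mouse plasma, was the most abundant serpin transcript. It stood at 5947, 8040.1 and 5570.2 FPKM in p21TKO replicates 1 to 3, against 3576, 5739.8 and 4089 FPKM in DKO replicates 1 to 3. The group means were 6519 ± 1331 and 4468 ± 1131 FPKM (SD, n = 3 each), and the ranges overlapped only between p21TKO replicate 3 and DKO replicate 2. On the log2 scale p21TKO was higher by 0.56 (SE 0.36), which did not pass (limma adjusted p = 0.6063).

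Serpina3n, which inhibits granzyme B and cathepsin G in mice, stood at 103, 2292 and 1238 FPKM in p21TKO replicates 1 to 3, against 284, 179 and 316 FPKM in DKO. Thus p21TKO replicates 2 and 3 lay above all DKO libraries and p21TKO replicate 1 below them. For each 100 FPKM of Serpina3k there were 1.73, 28.5 and 22.2 FPKM of Serpina3n in p21TKO, against 7.93, 3.13 and 7.73 in DKO. The log2 difference was 1.39 (SE 1.1, limma adjusted p = 0.6649). Without p21TKO replicate 1 it was 2.73 and passed (limma adjusted p = 0.02312), where 5.19% of all tested genes passed.

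Serpina3m too was above all DKO libraries in p21TKO replicates 2 and 3 and below them in p21TKO replicate 1. It stood at 100.5, 1134 and 864 FPKM in p21TKO, against 312, 103 and 208 FPKM in DKO (1.29, SE 0.95, limma adjusted p = 0.6462). Its highest DKO value was in replicate 1, and that of Serpina3n in replicate 3. Serpina3g, an inhibitor of lysosomal cathepsins in leukocytes, stood at 1.89, 5.88 and 5.48 FPKM in p21TKO, against 3.50, 3.91 and 2.27 FPKM in DKO (0.28, SE 0.36, limma adjusted p = 0.7923). Serpina3f stood at 0.428, 2.47 and 4.41 FPKM in p21TKO, against 1.31, 1.01 and 0.531 FPKM in DKO (0.64, SE 0.47, limma adjusted p = 0.6467). Of the 5 tested Serpina3 genes, p21TKO replicate 1 was below all DKO libraries for 4 and above them for 1, Serpina3k. In contrast, p21TKO replicate 2 was above all DKO libraries for 5 of 5 and p21TKO replicate 3 for 4 of 5. Over all tested genes, 27.3% were below all DKO libraries in p21TKO replicate 1 and 29.4% above them, while 30.0% were above them in p21TKO replicate 2 and 34.9% in p21TKO replicate 3. These copies are easier to tell apart than those of Serpina1, with 0.2 to 6.1% of 100-base windows shared with another gene, although Serpina3m shares 60 exon bases with Serpina3k on the same strand.

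The acute phase genes outside the serpins followed the same libraries. Of 26 tested, 22 had higher and 4 lower values, and none passed. Their median log2 difference was 0.93, beside 0.002 over all tested genes. Their median, centred on the 6 libraries, stood at -1.01, 1.54 and 0.71 in p21TKO replicates 1 to 3, against -0.32, -0.49 and -0.60 in DKO. Cd14, a receptor for bacterial lipopolysaccharide, stood at 1.13, 10.61 and 12.91 FPKM in p21TKO, against 1.03, 0.72 and 0.57 FPKM in DKO (limma adjusted p = 0.5234). Il1r1, the interleukin-1 receptor gene, stood at 6.58, 25.8 and 34.6 FPKM in p21TKO, against 6.98, 3.32 and 6.98 FPKM in DKO (limma adjusted p = 0.5234), and Socs3 and Saa3 came next by p (limma adjusted p = 0.5736 and 0.5771).

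Markers of neutrophils, whose elastase and cathepsin G are serpin targets, moved with the same libraries. Their 13 markers summed to 25.7, 561 and 225 FPKM in p21TKO replicates 1 to 3, against 10.9, 30.0 and 13.5 FPKM in DKO. All 8 tested had higher values (median log2 difference 1.89), led by S100a8, S100a9, Retnlg and Camp, and none passed (limma adjusted p = 0.5234 for each). Kupffer cell and macrophage markers summed to 50.5, 443 and 233 FPKM in p21TKO, against 149, 103 and 71.5 FPKM in DKO, with 12 of 12 higher. Liver endothelial markers summed to 20.6, 106 and 54.5 FPKM in p21TKO, against 36.8, 24.8 and 22.4 FPKM in DKO, also with 12 of 12 higher (median 0.62). No marker of these 3 lists was at 0 in every library. Their part in the serpin values was not tested. The sums in p21TKO replicates 2 and 3 lay above all DKO libraries, as did Serpina3n, Serpina3m, Serpina3g and Serpina3f.

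**Figure D3:**
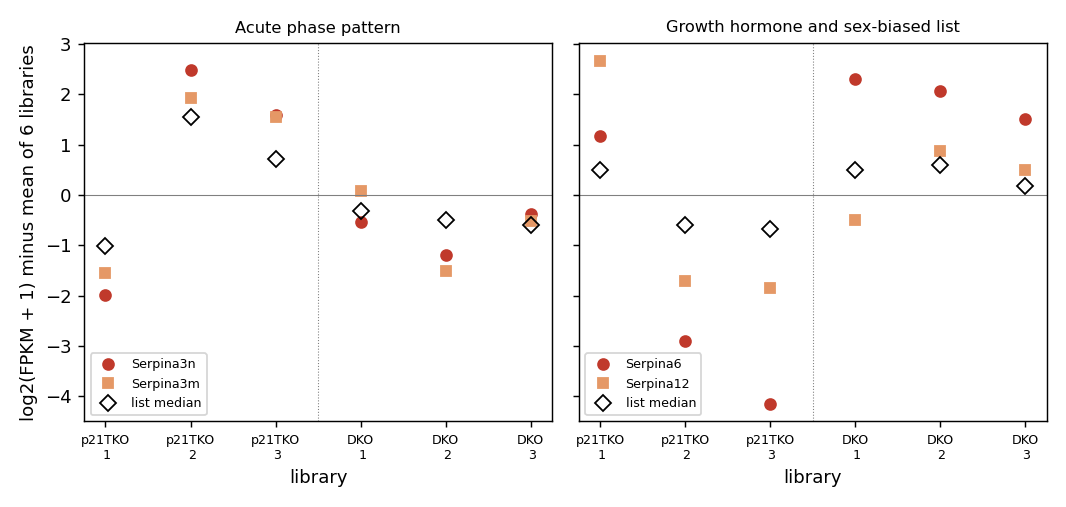
log2(FPKM + 1) of serpin genes after subtracting each gene's mean over the 6 libraries (filled symbols), beside the median of a gene list treated alike (open diamonds), with p21TKO at the left of each panel. In the left panel Serpina3n, Serpina3m and the acute phase median are highest in p21TKO replicates 2 and 3 and lowest in p21TKO replicate 1. In the right panel Serpina6, Serpina12 and the median of growth hormone and sex-biased genes are lowest in p21TKO replicates 2 and 3.

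Among the hormone carriers, Serpina6 had the largest difference of the family. It encodes corticosteroid-binding globulin, which carries glucocorticoids in blood, from chromosome 12, 103646630 to 103657212 (minus strand, GRCm38). It stood at 131, 6.88 and 2.29 FPKM (4472, 278 and 109 reads) in p21TKO replicates 1 to 3, against 291, 244 and 167 FPKM (12328, 9235 and 6523 reads) in DKO. All p21TKO libraries lay below all DKO libraries. The means were 46.8 ± 73.1 FPKM in p21TKO and 234 ± 62.9 FPKM in DKO (SD, n = 3 each), 5-fold lower in p21TKO. On the log2 scale the difference was -3.93 (SE 1.27, unadjusted p = 0.0185 by limma, limma adjusted p = 0.5234). Without p21TKO replicate 1 it was -5.49 and passed (limma adjusted p = 0.004696), where 5.19% of all tested genes passed. No p21TKO library with Y-linked transcripts is left in that fit.

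The low values of Serpina6 were found in libraries without Y-linked transcripts but were not shared by DKO replicate 1, which also lacks them. Within the libraries without Y-linked transcripts (p21TKO replicates 2 and 3 against DKO replicate 1) the log2 difference was -5.84. Within those with them (p21TKO replicate 1 against DKO replicates 2 and 3) it was -0.62. In each, a group is a single library, so neither has a measure of spread. The glucocorticoid receptor gene Nr3c1 stood at 7.45, 7.14 and 4.74 FPKM in p21TKO, against 10.19, 7.89 and 9.98 FPKM in DKO, a log2 difference of -0.49 that did not pass (limma adjusted p = 0.5234). Dio1, which activates thyroid hormone, stood at 91.0, 10.6 and 2.19 FPKM in p21TKO, against 120.1, 101.5 and 97.4 FPKM in DKO (limma adjusted p = 0.5234). Calr, a chaperone gene of the endoplasmic reticulum, had the lowest p of that list and stood at 283, 367 and 473 FPKM in p21TKO, against 182, 235 and 187 FPKM in DKO (0.87, limma adjusted p = 0.5234), with no overlap. Over the 18 tested genes of clearance, folding and hormone partners, 9 had higher and 9 lower values (median -0.01), and none passed, with Hspa5 the fourth by p (limma adjusted p = 0.531).

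Serpina7, the X-linked gene of thyroxine-binding globulin, did not follow Serpina6. It stood at 8.78, 29.2 and 13.5 FPKM in p21TKO, against 7.62, 20.8 and 12.2 FPKM in DKO. The groups overlapped, with a difference of 0.26 (SE 0.50) that did not pass (limma adjusted p = 0.8674).

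Serpina12 and Serpina9 were also lowest in p21TKO replicates 2 and 3, but highest in p21TKO replicate 1. Serpina12, which encodes vaspin, an adipokine, stood at 46.5, 1.29 and 1.06 FPKM in p21TKO replicates 1 to 3, against 4.30, 12.7 and 9.52 FPKM in DKO. Each library with Y-linked transcripts had more than any without them, and the genotype difference of -0.59 (SE 1.2) did not pass (limma adjusted p = 0.8748). It was -2.07 without p21TKO replicate 1 and passed (limma adjusted p = 0.04087), where 5.19% of all tested genes passed. With a term for Y-linked transcripts the difference turned to 0.35. Serpina9, known from germinal centre B cells in humans, was under the filter, with 139, 3 and 1 reads in p21TKO and 52, 142 and 70 reads in DKO (1.95, 0.036 and 0.010 against 0.589, 1.796 and 0.857 FPKM).

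Serpina11 stood at 51.1, 44.7 and 38.0 FPKM in p21TKO, against 26.0, 98.5 and 50.8 FPKM in DKO. The p21TKO values lay inside the DKO range, and the difference of -0.19 (SE 0.47) did not pass (limma adjusted p = 0.8951). It shares 40.8% of its exon bases with Gm28577 on the same strand, a gene listed at 0 in every library, so its level is uncertain.

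The clade A genes on chromosome 12 lie within 800.0 kb (GRCm38, chromosome 12, 103614786 to 104414329), and neighbours in that stretch differed in opposite ways. From one end, Serpina10 and Serpina6 are followed by the Serpina1 copies, then Serpina11, Serpina9 and Serpina12, and finally the Serpina3 genes. The genes with a mean of at least 0.5 FPKM were set against the DKO mean in p21TKO replicates 2 and 3. In both libraries Serpina6, Serpina1c, Serpina1e, Serpina11, Serpina9 and Serpina12 were under it. Serpina1a, Serpina1b, Serpina1d, Serpina3c, Serpina3f, Serpina3g, Serpina3k, Serpina3m and Serpina3n were over it in both, and Serpina10 only in p21TKO replicate 2. Serpina3c, under the filter, stood at 0.140, 2.66 and 1.02 FPKM in p21TKO (6, 135 and 61 reads), against 0.056, 0.420 and 0.386 FPKM in DKO (3, 20 and 19 reads).

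**Figure D4:**
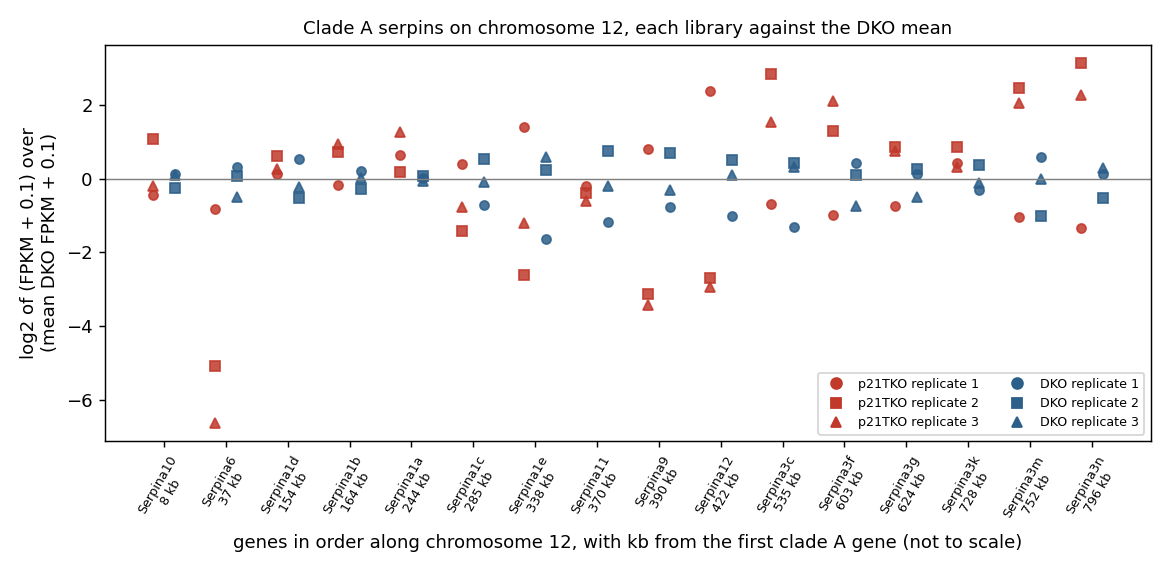
Clade A genes of chromosome 12 with a mean of at least 0.5 FPKM, in order of their midpoints, each library shown as log2 of its FPKM plus 0.1 over the DKO mean plus 0.1 (p21TKO in red at the left of each gene, DKO in blue). Serpina6, Serpina9 and Serpina12 lie far below the line in p21TKO replicates 2 and 3, and Serpina3c, Serpina3f, Serpina3m and Serpina3n above it, while p21TKO replicate 1 lies on the other side of the line for each of these but Serpina6.

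Of the serpins that restrain clotting, Serpinc1, the antithrombin gene, was the steadiest, with a spread of 1.68-fold, against 2.98-fold for Serpind1 and 2.9-fold for Serpina10. Serpinc1 stood at 197, 229 and 138 FPKM in p21TKO, against 231, 186 and 192 FPKM in DKO. The groups overlapped (-0.13, SE 0.29, limma adjusted p = 0.8822). Of its exon bases, 34.4% are also covered by Zbtb37 on the other strand. No source used here says whether counting used strand, so reads from that stretch cannot be told apart.

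Serpind1, the gene of heparin cofactor II, a thrombin inhibitor, stood at 185, 184 and 82.0 FPKM in p21TKO, against 244, 186 and 231 FPKM in DKO. All p21TKO libraries were lower than all DKO libraries, although p21TKO replicate 1 and DKO replicate 2 nearly touched, and the difference of -0.63 (SE 0.39) did not pass (limma adjusted p = 0.595). Serpina10, which inhibits clotting factor X together with protein Z, stood at 59.1, 171 and 70.6 FPKM in p21TKO, against 88.7, 68.5 and 86.1 FPKM in DKO. Only p21TKO replicate 2 was above the DKO range (0.15, SE 0.43, limma adjusted p = 0.9137).

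Serpinf2, the alpha-2-antiplasmin gene, whose product restrains clot breakdown, was the steadiest of the 24, at 402, 400.4 and 454 FPKM in p21TKO, against 401, 395 and 375 FPKM in DKO, a spread of 1.21-fold from lowest to highest library. Its log2 difference was 0.10 (SE 0.25, limma adjusted p = 0.9012).

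Serping1, the C1 inhibitor gene, which restrains complement and kallikrein, stood at 282, 499 and 204 FPKM in p21TKO, against 386, 353 and 345 FPKM in DKO. The p21TKO libraries lay on both sides of the DKO range (-0.23, SE 0.38, limma adjusted p = 0.8377). Serpinf1 encodes PEDF, a secreted serpin that inhibits blood vessel growth and not proteases, and stood at 240.2, 106 and 42.1 FPKM in p21TKO, against 197, 235 and 203 FPKM in DKO. Here p21TKO replicates 2 and 3 lay below the DKO range and p21TKO replicate 1 above it, and the difference of -1.03 (SE 0.60) did not pass (limma adjusted p = 0.583).

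Serpinh1, the collagen chaperone HSP47 of the endoplasmic reticulum, stood at 5.29, 5.03 and 1.74 FPKM in p21TKO, against 1.81, 2.93 and 1.70 FPKM in DKO. Replicates 1 and 2 of p21TKO were above the DKO range and p21TKO replicate 3 within it (0.60, SE 0.35, limma adjusted p = 0.583). Of the 9 tested collagens and collagen-folding genes, its partners, 7 had higher and 2 lower values (median 0.28), and none passed, with Col4a2, Col4a1, P4ha1 and P4hb first by p (limma adjusted p from 0.5234 to 0.5736). Stellate cell and fibroblast markers, from cells that make collagen, summed to 105, 112 and 93.3 FPKM in p21TKO, against 82.4, 55.5 and 53.0 FPKM in DKO. Of these markers 10 were tested, 8 with higher and 2 with lower values (median 0.315), and none passed. Their median, centred on the 6 libraries, was 0.447, 0.364 and -0.187 in p21TKO, against 0.013, -0.188 and -0.34 in DKO. By that measure p21TKO replicate 3 lay within the DKO range. The part of these markers in the Serpinh1 values was not tested.

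Clade B, the intracellular serpins, was nearly silent. Of its 27 genes, 12 on chromosome 1 and 15 on chromosome 13, 14 were at 0 in every library and 2 reached the filter. Serpinb9, which protects cells from granzyme B, stood at 1.64, 1.55 and 0.984 FPKM in p21TKO, against 3.50, 1.56 and 3.65 FPKM in DKO. Replicates 2 and 3 of p21TKO lay under all DKO libraries, and p21TKO replicate 1 lay just above DKO replicate 2. The log2 difference of -0.67 (SE 0.27) had an unadjusted p of 0.0433 by limma and did not pass (limma adjusted p = 0.5234).

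Serpinb6a, an inhibitor of cathepsin G, stood at 0.602, 4.12 and 2.94 FPKM in p21TKO, against 1.05, 0.919 and 0.948 FPKM in DKO. As with Serpina3n, p21TKO replicate 1 was below and replicates 2 and 3 were above all DKO libraries (0.69, SE 0.41, limma adjusted p = 0.5866). Without p21TKO replicate 1 the difference was 1.19 and passed (limma adjusted p = 0.02103), where 5.19% of all tested genes passed. Part of the gene, 29.3% of its exon bases, is also covered by genes on the other strand, among them Nqo2 and Ripk1.

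The other 39 serpin genes were under 1 FPKM on average. Of these, 15 were at 0 throughout. A floor of 3 reads corresponds to 0.0348 to 0.127 FPKM for them, depending on gene and library, and covers counting error only. Another 15 had at most 10 reads in any library. Besides Serpina9 and Serpina3c, the highest were Serpinb1a, an inhibitor of neutrophil proteases, at 0.359, 1.12 and 0.241 FPKM in p21TKO and 0.578, 0.161 and 0.742 FPKM in DKO, and Serpinb6b, at 0.183, 0.944 and 0.588 FPKM in p21TKO and 0.442, 0.288 and 0.517 FPKM in DKO. Serpine2, the protease nexin 1 gene, stood at 1.02, 0.273 and 0.094 FPKM in p21TKO, against 0.181, 0.219 and 0.483 FPKM in DKO. The groups overlapped for these 3 genes, and none was tested.

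**Figure D5:**
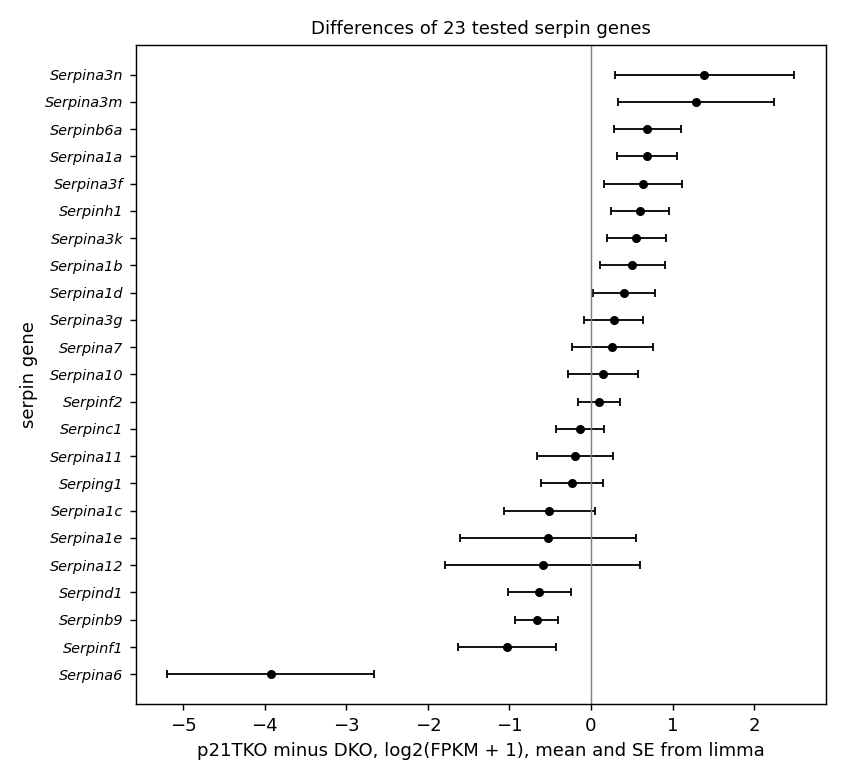
Log2 difference (p21TKO minus DKO, on log2(FPKM + 1)) of 23 of the 24 tested serpin genes, with the standard error from limma as bars. Serpina6 lies lowest at -3.93 and Serpina3n highest at 1.39, and no gene passed the test over all genes.

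Some serpins differed between libraries with and without Y-linked transcripts. These sets of 3 libraries are not the study's groups, and no test was run on them. They did not overlap for 10 of 24 serpin genes, against 17.9% of all tested genes (10.7% higher and 7.22% lower with Y-linked transcripts). Serpina1e, Serpina1c, Serpina11, Serpina12 and Serpinf1 were higher in each library with Y-linked transcripts than in any without, and Serpina1b, Serpina1d, Serpina3m, Serpina3f and Serpinb6a were lower. On average Serpina12 was 10.3 times and Serpina1e 5.79 times as high with Y-linked transcripts (22.9 against 2.21 FPKM and 3475 against 600.2 FPKM). Both p21TKO libraries without Y-linked transcripts are also those high in acute phase genes. DKO replicate 1 lacks Y-linked transcripts too, but its acute phase median was low (-0.32, centred on the 6 libraries). There Serpina3m, Serpina3f and Serpinb6a stood at 312, 1.31 and 1.05 FPKM. These values lay above the other DKO libraries and below p21TKO replicates 2 and 3. The part of each pattern in these genes was not tested.

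Genes driven by growth hormone or biased by sex in mouse liver followed the Y-linked transcripts in their sum but not in their median. Of 26 tested, 7 had higher and 19 lower values (median -0.74), and none passed. Their summed level was 21571, 1155 and 710.5 FPKM in p21TKO replicates 1 to 3, against 3926, 16360.0 and 23865 FPKM in DKO, so the sum was highest in the 3 libraries with Y-linked transcripts, as for Serpina12. The very abundant Mup3 alone had 11860.5, 248 and 26.6 FPKM in p21TKO, against 2120.1, 9544 and 8509 FPKM in DKO. The median over the genes, centred on the 6 libraries, was 0.50, -0.59 and -0.67 in p21TKO, against 0.50, 0.60 and 0.18 in DKO. By that measure DKO replicate 1, which lacks Y-linked transcripts, lay with the libraries that have them, and only p21TKO replicates 2 and 3 were low. The list was not split by direction of sex bias, so its median does not place a library by sex. Of single members in DKO replicate 1, Mup3 and Hsd3b5 were below each library with Y-linked transcripts, and Igfals lay among those libraries. Ghr, the growth hormone receptor gene, stood at 61.1, 17.7 and 5.82 FPKM in p21TKO, against 56.3, 63.2 and 62.2 FPKM in DKO (limma adjusted p = 0.531), so it was low in p21TKO replicates 2 and 3, like Serpina6, and not in DKO replicate 1. Mup3, Igfals and Hsd3b5 followed by p (limma adjusted p from 0.5757 to 0.6144).

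The proteases that serpins bind did not move as one. Of 32 listed, 21 were tested, 6 with higher and 15 with lower values (median -0.30), and none passed. Masp1, a complement protease, stood at 16.3, 12.3 and 12.4 FPKM in p21TKO, against 19.9, 18.6 and 21.2 FPKM in DKO, with no overlap (limma adjusted p = 0.5234). F11, a clotting factor gene, stood at 27.48, 25.05 and 15.61 FPKM in p21TKO, against 35.34, 27.93 and 42.31 FPKM in DKO (limma adjusted p = 0.531). Its p21TKO values all lay below DKO, although p21TKO replicate 1 and DKO replicate 2 nearly touched. Ctsl, a lysosomal cathepsin gene, stood at 63.6, 232 and 306 FPKM in p21TKO, against 75.1, 59.8 and 77.9 FPKM in DKO (limma adjusted p = 0.5365). Hgfac had a limma adjusted p of 0.5552.

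Liver protease inhibitors of other families had 14 higher and 6 lower values of 20 tested (median 0.13), and none passed. Slpi, a secreted inhibitor of neutrophil elastase from the WFDC family, stood at 4.42, 10.2 and 3.44 FPKM in p21TKO, against 0.42, 1.14 and 0.42 FPKM in DKO (1.99, limma adjusted p = 0.2548), with no overlap. Mug2, a murinoglobulin that traps proteases, stood at 66.0, 4.13 and 0.89 FPKM in p21TKO, against 96.9, 50.2 and 92.0 FPKM in DKO (limma adjusted p = 0.5234). Its low values fell in p21TKO replicates 2 and 3, like those of Serpina6. Timp2 and Kng2 had limma adjusted p of 0.5154 and 0.6136.

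Short promoter windows were searched for the STAT letters TTCNNNGAA, which STAT3 of the interleukin-6 pathway binds, and the C/EBP letters TTGCNNAA, on both strands. Windows from 250 bases before to 50 after a gene's start (RefSeq, GRCm38.p6) were given for 53 of the 63 serpin genes and 18 of the 24 tested ones. The STAT letters were in 4 of those 18 genes, against 9.6% of all genes with a window, and the C/EBP letters in 8 of 18, against 12.2%. Copies of a family were counted as separate genes, so these counts are not of independent genes. Serpina3f and Serpina3g, both among those with STAT letters, have much the same bases around the match. The 39 bases around a STAT match are shown for 3 genes because Serpina3f, Serpina3g and Serpinb6a were high in the libraries high in acute phase genes, and the capitals mark the match. They lie at chr12:104214408-104214446 (plus strand), chr12:104236099-104236137 (plus strand) and chr13:34002848-34002886 (minus strand).
Serpina3f: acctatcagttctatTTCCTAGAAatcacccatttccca
Serpina3g: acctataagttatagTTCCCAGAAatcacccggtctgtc
Serpinb6a: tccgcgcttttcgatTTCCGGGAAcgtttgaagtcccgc

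The window of Serpina3n held no STAT letters, and that of Serpina11, which did not share the pattern, did. No window was given for Serpina3m or Serpina3k. Serpinb6a held a second STAT match, at chr13:34002751-34002789 (minus strand), which is not shown. A match describes letters and not a bound site.

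Leaving out p21TKO replicate 1 changed the picture most. Without it, 4 of 24 serpin genes passed the threshold (Serpina3n 2.73 and Serpinb6a 1.19 higher, Serpina6 -5.49 and Serpina12 -2.07 lower), where 5.19% of all tested genes passed (limma adjusted p under 0.05). That library is the only one of the p21TKO group with Y-linked transcripts, so without it no p21TKO library has them. Over all alternatives the limma adjusted p ranged from 0.02312 to 0.9746 for Serpina3n, 0.004696 to 0.9399 for Serpina6, 0.04087 to 0.9963 for Serpina12 and 0.02103 to 0.9543 for Serpinb6a. Leaving out any of the other 5 libraries in turn gave 0 serpin genes past the threshold.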

How the data were processed

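Liver polyA RNA of 3 p21TKO and 3 DKO libraries was analysed. The deposited table holds an FPKM value for each gene in each library. Per the labels' protocols, TRIzol was used for extraction and a NEBNext Ultra kit for the libraries. The tools named, per the submitters' processing notes, were HISAT2 2.0.5, fastp, CASAVA 1.8, DESeq2 1.20.0 and featureCounts 1.5.0-p3. The builds named there, GRCh38 and hg38, are human although the gene identifiers are mouse, so the authors' build is unsettled. GENCODE M21 (GRCm38) supplied coordinates, exon lengths and transcripts, matched by identifier for 55394 of 55573 genes. FPKM times exon length gave whole multiples of 1 read, within 0.02 reads, for 99.2 to 99.3% of values above 0, which gave reads and denominators.

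The test was limma 3.58.1 on log2(FPKM + 1) for genes averaging 1 FPKM or more (trended prior variance, two-sided, R 4.3.3), fitted on all 9538 such genes with Benjamini-Hochberg adjustment. This scale understates changes of low genes. With 3 libraries a group, precision is limited by their number. The fit was also run on simulated data with independent noise for each gene. Those data hold no library that deviates across many genes, so they do not check the fit for p21TKO replicate 1. Every serpin that was tested is named, except 1 that is not reported here but stays in the counts, then the 5 highest below it, and up to 4 genes per list by p. The members and lists were chosen with earlier results of these data known. Lists of biliary (2 tested, median log2 difference 0.22) and lymphocyte markers (0 tested, summing to 0.3 to 1.42 FPKM in p21TKO and 2.28 to 3.3 FPKM in DKO) were also examined, and no member passed. Alternatives were the pseudocount, the filter, median-ratio scaling, a constant prior variance, limma voom on recovered reads, a replicate block, a term for Y-linked transcripts and leaving out each library. Sequences were handled in Python 3.11.15 with Biopython 1.88, and plots drawn with matplotlib 3.10.9.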

Additional observations from a re-analysis of the deposited data

How the results depend on the processing

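The count of 0 serpin genes past the threshold (limma) held under a pseudocount of 0.1, no filter, a filter of 5 FPKM, median-ratio scaling, a constant prior variance, voom and a term for Y-linked transcripts. Leaving out single libraries gave 0 to 4 serpin genes, with 4 without p21TKO replicate 1. The smallest serpin adjusted p was 0.545 by voom. Over all genes, 7 passed as reported, 1 with no filter, 4 at a mean FPKM of at least 5, 2 by voom, and 1 to 495 when a library was left out. A pseudocount of 0.1 gave 10, median-ratio scaling and a constant prior variance 7 each, and the Y-linked term 9. The replicate block gave 0 of all genes (1 serpin gene at an unadjusted p under 0.05) and 0 serpin genes past the threshold. Same-numbered libraries did not deviate together (correlations -0.44, -0.49 and -0.07), so the numbers were not taken as pairs. Of 331 single-gene values under alternatives, 314 kept their direction and side of the threshold, 4 passed (all without p21TKO replicate 1), and 13 turned sign without passing. With a term for Y-linked transcripts these were Serpina1e (0.36), Serpina10 (-0.032), Serpina11 (0.091) and Serpina12 (0.35). Without p21TKO replicate 2 they were Serpina1e (0.37), Serpina10 (-0.31), Serpina7 (-0.18) and Serpina12 (0.12), and without p21TKO replicate 3 Serping1 (0.056), Serpinc1 (0.073) and Serpina12 (0.19). Without DKO replicate 2 Serpina11 turned to 0.28, and without DKO replicate 1 Serpina7 to -0.06. Leaving out single libraries, the differences ranged from -1.63 to 0.37 for Serpina1e, -0.58 to 0.056 for Serping1, -0.29 to 0.073 for Serpinc1, -0.31 to 0.45 for Serpina10, -0.66 to 0.28 for Serpina11, -0.18 to 0.63 for Serpina7 and -2.07 to 0.19 for Serpina12. The cause was not tested. The summed levels of the serpin groups moved by less than the spread between libraries under each alternative tried.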
